A study of Paralichthys olivaceus with 24 samples.

Results

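In the spleen of Japanese flounder (Paralichthys olivaceus), 44 of 13028 tested contig probes were lower with poly(I:C) than with water at 25 °C and 3 h, while their mean levels with poly(I:C) and water lay close together in the later samples from 25 °C and in all those from 15 °C. Each stands for a different contig, and they were chosen by a rule on the deposited log2 values. All tested probes numbered 13379. Of these, 351 were for known sequences and outside the choice, and 1 of them met the same limits. The rule asked for a mean difference of at most -1.5 log2 (poly(I:C) minus water) at 25 °C, 3 h, and for differences smaller than 0.5 log2 in size in the other 3 settings. Those 4 differences therefore describe the choice and are not tested. Fish had received poly(I:C) and been kept for 3 h or 24 h in the warm (25 °C) or the cold (15 °C), or had received DEPC-treated water under the same conditions, which makes 8 groups of 3 arrays, all 24 with spleen RNA. Strain, age and sex are not given in the labels used here. Whether the 3 arrays of a group came from different fish is not stated, and the p-values rest on a spread between arrays that may be technical.

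Poly(I:C) is a synthetic double-stranded RNA that vertebrate cells sense as they sense viral RNA, and that starts an interferon and antiviral programme. The spleen of bony fish is a blood-rich lymphoid organ that holds red cells, macrophages and lymphocytes, and fish take their body temperature from the water. A signal in whole spleen can be low because fewer cells of a type were present or because each cell held less RNA, and these cannot be told apart here. Targets carry contig codes only. A search of the RefSeq gene table of this species matched 0 of the 14478 codes and names on the array. No function is assigned to any of the 44 probes, and the tissue label could not be set against marker genes.

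The 44 probes were mostly dim. Signals are given as log2 values relative to the 75th percentile of the array. The mean over all 24 arrays ranged from -5.64 to 4.04, with a median of -2.72 against -1.63 over all tested probes. Of the 44 probes, 26 were well above background on all 24 arrays (59.1%), against 78.1% of all tested probes. Their SD between arrays of a group, averaged over the 8 groups, had a median of 0.27 log2 against 0.22 for all tested probes. Split into 4 equal bands of array rows, the bands held 15, 10, 6 and 13 of them.

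At 25 °C and 3 h the median of the 44 probes was -3.82, -4.03 and -4.11 on the poly(I:C) arrays, against -2.10, -2.19 and -2.22 on the water arrays. The 3 poly(I:C) arrays were the lowest of all 24, and the 3 water arrays the highest. At 25 °C and 24 h the array medians averaged -2.55 ± 0.16 with poly(I:C) and -2.44 ± 0.06 with water (SD, n = 3). At 15 °C and 3 h they averaged -2.50 ± 0.09 with poly(I:C) and -2.58 ± 0.15 with water, and at 15 °C and 24 h -2.85 ± 0.13 with poly(I:C) and -2.52 ± 0.19 with water (SD, n = 3). The array medians of both treatments overlapped at 25 °C after 24 h and likewise at 15 °C after 3 h, while at 15 °C and 24 h 2 of the 3 poly(I:C) arrays lay below all water arrays. The arrays with poly(I:C) at 25 °C, 3 h were on slide 2 and those with water on slide 3, so within these 6 arrays treatment and slide cannot be told apart.

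**Figure D1:**
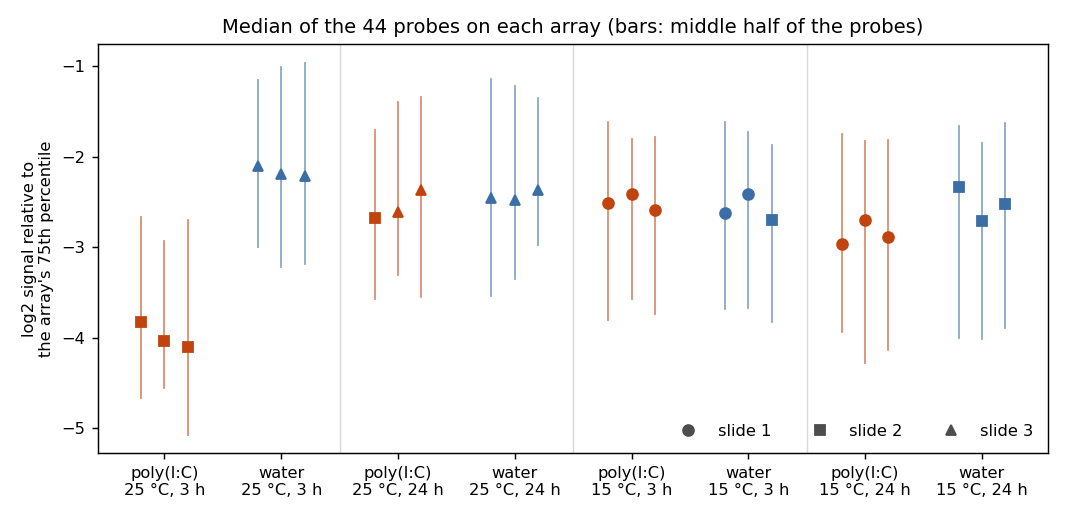
Median log2 signal of the 44 probes on each of the 24 arrays, relative to the array's 75th percentile, with bars from the lower to the upper quartile of the probes and symbols for the slide. The 3 poly(I:C) arrays at 25 °C and 3 h sit between -4.11 and -3.82, below all other arrays.

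The difference at 25 °C and 3 h ranged from -2.64 to -1.501 log2 over the 44 probes, with a median of -1.67. Of all tested probes 4.53% had a difference of at most -1.5 log2, and the median of all tested probes was -0.15. On 43 of the 44 probes all 3 poly(I:C) arrays lay below all water arrays with a value, which held for 32% of all tested probes. For 1 of the 43, CUST_4593_PI426483990, the spot on replicate 1 of water was left out as an outlier. It also held for 513 (96.2%) of the 533 other contig probes with a difference of at most -1.5 log2. This separation comes largely with the threshold and is a description. The exception among the 44 was CUST_7823_PI426483990, named after its values were seen, with -1.59, -0.48 and -0.45 on the poly(I:C) arrays against 1.56, 1.09 and -0.64 on the water arrays. The contig probe nearest to the threshold on the other side stood at -1.497. The largest of the other 3 differences in size was 0.491 within the group, and the nearest probe outside stood at 0.504.

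The 44 differences in the other 3 settings were small by choice. At 25 °C and 24 h 38 of the 44 differences were below 0, with a median of -0.22 against -0.16 for all tested probes. At 15 °C and 24 h 29 were below 0, with a median of -0.22 against -0.0046 for all tested probes. At 15 °C and 3 h 23 were below 0, with a median of -0.02 against -0.05. Of all 13379 tested probes, 8707, 6731 and 7704 were below 0 in these 3 settings, in the same order. The 44 probes were a small part of the 577 contig probes with a difference of at most -1.5 log2 at 25 °C and 3 h. Among the other 533, 346 also had a difference of -0.5 or less at 15 °C and 24 h, 305 had one in the 25 °C samples of 24 h, and 75 in the 15 °C samples of 3 h.

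When the rule chose probes anew, low values were also found in arrays that had taken no part in that choice. The rule was applied to the arrays of 2 replicate numbers and the difference read in the arrays of the third, with the numbers used only to leave arrays out. With replicate 1 left out 75 probes were chosen, with a median difference of -1.79 log2 in the choosing arrays and -1.30 in the left-out pair of arrays, where 72 lay below 0. With replicate 2 left out 36 were chosen, with medians of -1.67 and -1.27 and 32 below 0, and with replicate 3 left out 50 were chosen, with medians of -1.71 and -1.42 and 49 below 0. Of the chosen probes, 27 of 75, 19 of 36 and 18 of 50 belonged to the set chosen from all arrays. These readings therefore bear on the rule and not on that set, which was chosen with the left-out arrays as well. The difference was smaller in the left-out arrays in each case, and the medians of all contig probes there were -0.14, -0.11 and -0.21 log2. Of all contig probes, 57.1%, 55.2% and 60.7% lay below 0 in those arrays. A difference of -1.5 or less recurred in 25 of 75, 14 of 36 and 20 of 50 chosen probes, against 7.65%, 5.09% and 7.07% of all contig probes. The left-out arrays lay on the same slides as the choosing arrays of their group at 25 °C and 3 h. Whether they came from other fish is not stated. These readings therefore cannot tell treatment from slide.

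**Figure D2:**
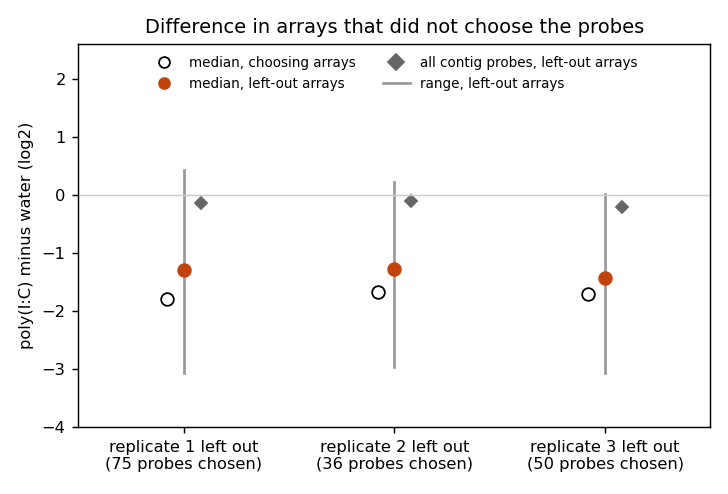
Difference between poly(I:C) and water at 25 °C and 3 h (log2) for probes chosen without 1 replicate number, in the choosing arrays and in the left-out arrays, beside the median of all contig probes. Medians in the left-out arrays ran from -1.42 to -1.27, nearer to 0 than those in the choosing arrays and below those of all contig probes.

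The small differences in the other 3 settings seldom recurred in single arrays. All 3 other differences stayed below 0.5 in size in the left-out arrays for 18 of 75, 9 of 36 and 7 of 50 chosen probes. Over all contig probes the shares were 32.3%, 34.8% and 28.5%. The full rule was met again by 3, 6 and 3 chosen probes.

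Both a low poly(I:C) level and a high water level entered the difference, in shares that depend on the groups they are set against. The poly(I:C) level at 25 °C and 3 h was set against the mean of the other 3 poly(I:C) groups, and the water level likewise. The median difference was -1.21 log2 for the poly(I:C) level and 0.45 log2 for the water level, against -0.05 and 0.00081 over all tested probes. The low poly(I:C) level was the larger part for 32 probes and the high water level for 12. Of the groups behind these means 2 in 3 are at 15 °C. Against the 24 h group of the same treatment at 25 °C the median was -1.26 log2 for the poly(I:C) level and 0.24 log2 for the water level. The low poly(I:C) level was then the larger part for 42 probes, and the high water level for 2, CUST_6107_PI426483990 and CUST_4097_PI426483990, named after their values were seen. For 20 probes the poly(I:C) level was at least 1 log2 below its other groups and the water level less than 0.5 log2 above its own. The 12 probes with the larger water part against all 3 groups were dimmer, with a median level over 24 arrays of -3.92 against -2.44 for the 32. These values share arrays with the rule and are a description.

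**Figure D3:**
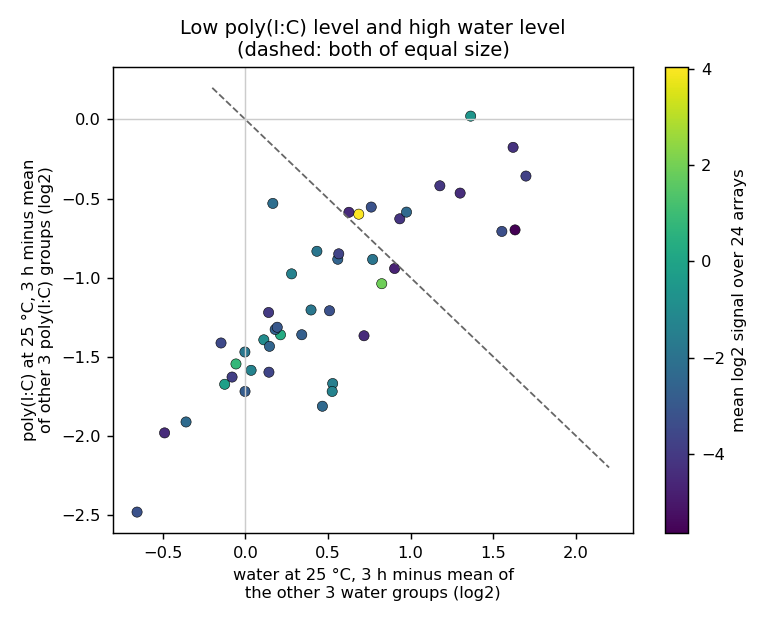
Each point is 1 of the 44 probes, with its water level at 25 °C and 3 h (horizontal) and its poly(I:C) level at 25 °C and 3 h (vertical), each minus the mean of the other 3 groups of that treatment in log2, coloured by mean signal. The band shape follows from the rule, and 32 points lie on the side where the poly(I:C) part is larger.

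Probe CUST_11795_PI426483990 (contig JFC00232_1_code) had the most negative difference of the 44. This probe and CUST_13896_PI426483990 below were picked for the size of that difference, which their SE does not allow for. CUST_11795_PI426483990 gave -3.77, -4.29 and -4.49 on the poly(I:C) arrays at 25 °C and 3 h, against -1.15, -1.66 and -1.83 on the water arrays. The difference was -2.64 log2 (limma SE 0.26), with no overlap. In the other 6 groups its means lay between -2.55 and -1.84. Its poly(I:C) level at 25 °C and 3 h differed by -1.81 log2 from the mean of the other poly(I:C) groups, and its water level by 0.47 from that of the other water groups.

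Probe CUST_13896_PI426483990 (contig JFC09160_1_code) was next among those well above background on all poly(I:C) arrays at 25 °C and 3 h. It gave -3.20, -2.99 and -3.07 there, against -0.80, -0.78 and -0.80 on the water arrays, a difference of -2.30 log2 (limma SE 0.17), with no overlap. Its levels at 25 °C and 24 h were close to those water values, at -0.84 ± 0.01 with poly(I:C) and -0.75 ± 0.18 with water (SD, n = 3). At 15 °C its group means were lower, between -1.92 and -1.49, and the tested temperature difference described below was 0.80 log2 (SE 0.12, limma adjusted p = 2.4e-05).

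Probe CUST_538_PI426483990 (contig JFC23656_1_code) had the highest water level relative to the other water groups. It gave -4.55, -4.25 and -3.96 on the poly(I:C) arrays at 25 °C and 3 h, against -2.20, -2.55 and -2.02 on the water arrays. The poly(I:C) values overlapped those of all 4 groups at 15 °C, whose means lay between -4.55 and -4.20. Water at 25 °C and 3 h was 1.70 log2 above the mean of the other water groups, whereas poly(I:C) at 25 °C and 3 h differed by -0.36 from the mean of the other poly(I:C) groups. Against 25 °C and 24 h alone its poly(I:C) level differed by -1.06 log2 and its water level by 0.51 log2. That poly(I:C) group at 24 h was split by slide, with -4.08 on slide 2 against -2.66 and -2.83 on slide 3. For this probe all arrays on slide 3 were at -2.96 or above, and all arrays on slides 1 and 2 at -3.74 or below. Its differences in treatment and temperature therefore cannot be told apart from the slide.

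On 29 of the 44 probes the signal was well above background on all 3 poly(I:C) arrays at 25 °C and 3 h, on 9 on 1 or 2 arrays, and on 6 on none. Of these 6, CUST_9792_PI426483990 was well above background on no water array there either, so its difference of -1.68 log2 has no bound. For the others, a fold is a bound from the bright group's mean and a floor on each dim array. That floor is the higher of the probe's own signal and the lowest signal called well above background. The bounds of CUST_9903_PI426483990, CUST_2277_PI426483990 and CUST_3532_PI426483990, named to complete the count, were 1.88, 2.51 and 2.61-fold, under the 2.83-fold of the rule's limit. CUST_9903_PI426483990 passed the filter only through the water arrays at 25 °C and 3 h, where it is high. Probe CUST_3170_PI426483990 (contig JFC25565_1_code) was at least 3.31-fold lower with poly(I:C), with -5.22, -5.11 and -5.70 against -3.44, -3.15 and -3.60 on the water arrays. Probe CUST_1349_PI426483990 (contig JFC07000_1_code) was at least 2.93-fold lower, with -6.05, -6.06 and -5.25 against -2.99, -4.39 and -3.45. Neither probe's arrays overlapped between treatments.

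One member rests on a spot that Feature Extraction marked as an outlier. Probe CUST_4593_PI426483990 (contig JFC07564_1_code), named after its values were seen, has a deposited difference of -2.21 log2 at 25 °C and 3 h. On replicate 1 of water the deposited value is 4.40 log2 above the mean of the other 2 water arrays. Without that spot the difference was -0.74 log2, and the fits below left the spot out.

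The median of the 44 probes also differed between temperatures within each treatment. At 3 h the median difference between 25 °C and 15 °C was -1.22 log2 with poly(I:C) and 0.54 log2 with water, against -0.05 and -0.0022 for all tested probes. At 24 h it was 0.43 log2 with poly(I:C) and 0.39 log2 with water, against -0.04 and 0.08 for all tested probes. In 3 of the 4 combinations of treatment and time the median probe was higher in the warm, and the exception was poly(I:C) at 3 h. All 4 values share arrays with the choice of the probes and are not tested within a treatment. Only the average over both treatments at 24 h is tested, below.

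**Figure D4:**
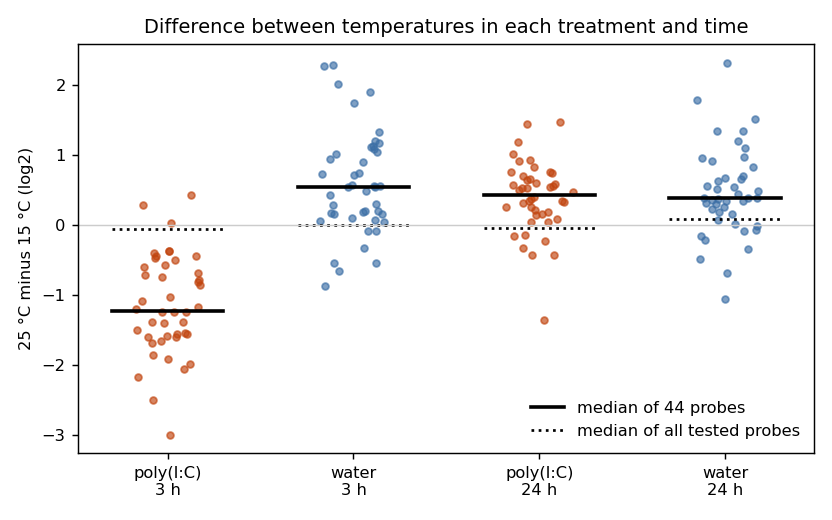
Difference between 25 °C and 15 °C (log2) of each of the 44 probes, by treatment and time, with the median of the 44 probes (solid) and of all tested probes (dotted). The median was -1.22 with poly(I:C) at 3 h and between 0.39 and 0.54 in the other 3 combinations.

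The difference between 25 °C and 15 °C at 24 h, averaged over poly(I:C) and water, was tested with limma over all 13379 probes. Its array noise is uncorrelated with that of the differences that chose the probes, but the slides are shared. At 25 °C and 3 h the rule set slide 2 (poly(I:C)) against slide 3 (water). At 24 h the 25 °C arrays lay on slide 3, except replicate 1 of poly(I:C), and the 15 °C arrays on slides 1 and 2. A signal higher on slide 3 thus enters the choice and this test in the same direction. Of the 44 probes 21 rose at 25 °C (47.7%) and 3 fell, at a Benjamini-Hochberg adjusted p under 0.05. Over all tested probes 24.9% were called higher and 22.4% lower, 47.3% in either direction. The median over the 44 probes was 0.52 log2, with 36 above 0. Over all tested probes it was 0.03, with 52.2% above 0. The 21 called higher ran from 0.35 to 1.90 log2. The 533 other probes with a difference of -1.5 log2 or less at 25 °C and 3 h were called higher at 25 °C in 368 cases (69%), and their median was 0.88. With water alone the medians were 0.39 for the 44 and 0.46 for the 533, and with poly(I:C) alone 0.43 and 1.06. The rule limited the poly(I:C) differences at 24 h in the 44 and not in the 533, so the 2 sets are not compared on equal terms. Of the 21, 3 met the background filter in groups at 25 °C alone (CUST_68_PI426483990, CUST_2277_PI426483990 and CUST_3532_PI426483990), so they entered the test through the side where they are high. No slide held this comparison within 1 treatment, and with the slide as a block 1 of the 44 probes was called, CUST_13896_PI426483990 at 1.14 log2 (limma adjusted p = 0.0078), against 6.54% of all tested probes, with a median of 0.29 over the 44.

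Probe CUST_68_PI426483990 (contig JFC12420_1_code) had the largest fitted difference. At 24 h it gave -3.72, -3.12 and -3.55 with poly(I:C) and -3.53, -2.88 and -2.73 with water at 25 °C, against -5.10, -4.54 and -5.16 with poly(I:C) and -5.22, -5.89 and -4.98 with water at 15 °C. All 6 arrays at 25 °C lay above all 6 at 15 °C, with a fitted difference of 1.90 log2 (SE 0.28, limma adjusted p = 2.7e-05). The probe passed the filter only in groups at 25 °C, where it is high. The filter thus favoured a difference, and the separation and the call are no independent support. CUST_538_PI426483990 rose by a fitted 1.40 log2 (SE 0.23, limma adjusted p = 6.7e-05). On the water arrays from 15 °C after 24 h neither probe was well above background, so these sizes are not fully measured, and with the slide as a block they were 1.94 (SE 0.65, limma adjusted p = 0.088) and 0.46 (SE 0.41, limma adjusted p = 0.58).

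A total of 3 probes fell at 25 °C, and 0 of the 44 were called lower by limma after normexp background correction (1 at an unadjusted p under 0.05), which put the median of all tested probes at 0.30 log2. Probe CUST_10393_PI426483990 (contig JFC19425_1_code) gave -1.94, -2.05 and -0.87 with poly(I:C) and -1.37, -1.15 and -2.33 with water at 25 °C and 24 h, against -0.14, -0.27 and -0.36 with poly(I:C) and -1.33, -0.27 and -0.11 with water at 15 °C and 24 h. One water array at 15 °C lay among those at 25 °C, and the difference was -1.21 log2 (SE 0.33, limma adjusted p = 0.0057). CUST_7005_PI426483990 (contig JFC25380_1_code) had a difference of -0.45 log2 (SE 0.15, limma adjusted p = 0.021), which was no longer called without replicate 2 of water at 25 °C and 24 h (limma adjusted p = 0.070). CUST_11123_PI426483990, named to complete the count, had a difference of -0.40 log2 (SE 0.15, limma adjusted p = 0.033). With the slide as a block, CUST_10393_PI426483990 and CUST_7005_PI426483990 kept differences of -1.21 and -0.44 log2 that were not called (limma adjusted p = 0.39 and 0.54). After normexp they were -0.51 and 0.063 log2 (limma adjusted p = 0.11 and 0.84).

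**Figure D5:**
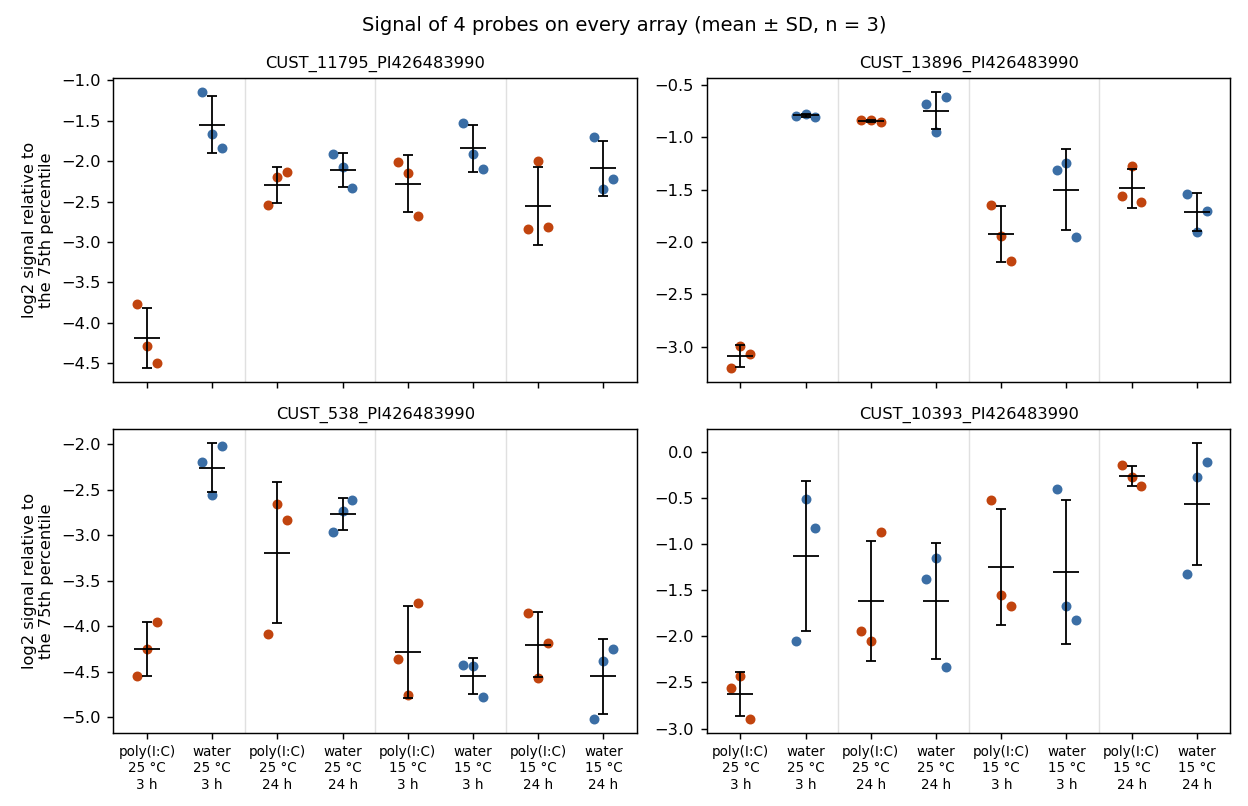
Log2 signal of 4 probes on every array, relative to the array's 75th percentile, with mean ± SD (n = 3) for each group of treatment, temperature and time. CUST_11795_PI426483990 and CUST_13896_PI426483990 are lowest in the poly(I:C) group of 25 °C and 3 h, CUST_538_PI426483990 is highest with water at 25 °C and 3 h, and CUST_10393_PI426483990 is higher at 15 °C and 24 h than at 25 °C and 24 h.

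The difference between 24 h and 3 h at 15 °C, averaged over both treatments, was called for 4 of the 44 probes (9.09%), all lower at 24 h, against 24.8% of all tested probes. Limma called 0 of the 44 probes higher, against 11.6% of all tested probes, and 4 lower, against 13.3%. At an unadjusted p under 0.05, 2 were higher and 8 lower. The median over the 44 probes was -0.16 log2, with 30 below 0. Over all tested probes it was 0.02, with 6434 of 13379 below 0. Among the 533 other probes with a difference of -1.5 log2 or less at 25 °C and 3 h, 39.2% were called. In that set 37.9% were called lower at 24 h, and the median was -0.39 log2. The average contains the poly(I:C) differences at 15 °C, which the rule limited in the 44 probes and not in the others. At 24 h that difference had a median of -0.94 in the 533. With water alone the median change from 3 h to 24 h was -0.11 over the 44, 0.04 over the 533 and -0.02 over all tested probes. The shares called are therefore not compared on equal terms. The limma SE of the 44 probes had a median of 0.17 log2, against 0.14 for all tested probes. The poly(I:C) arrays at 15 °C all lay on slide 1, and within that slide the median of the 44 was -0.22 log2, with 32 below 0. For all tested probes this median was 0.03, with 6437 of 13379 below 0. On slide 2 the water arrays at 24 h and the single water array at 3 h differed by a median of 0.00025 log2, with 22 of the 44 below 0. For all tested probes that median was 0.03, with 6232 of 13362 below 0.

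Probe CUST_4719_PI426483990 (contig JFC20414_1_code) fell most with time at 15 °C. At 24 h it gave -3.90, -4.32 and -4.77 with poly(I:C) and -3.85, -4.43 and -3.78 with water, against -2.45, -3.37 and -3.35 with poly(I:C) and -3.60, -3.14 and -2.78 with water at 3 h. All 6 arrays at 24 h lay below all 6 at 3 h, a difference of -1.06 log2 (SE 0.29, limma adjusted p = 0.012). It was well above background on 2 of 3 arrays in each treatment at 24 h. CUST_9792_PI426483990 (contig JFC15804_1_code) fell by 0.74 (SE 0.21, limma adjusted p = 0.014), and CUST_5768_PI426483990 and CUST_54_PI426483990 fell by 0.41 and 0.43 on the log2 scale (limma adjusted p = 0.0053 and 0.018), the last pair named to complete the count. At 24 h CUST_9792_PI426483990 was well above background on 2 of 3 poly(I:C) arrays and 1 of 3 water arrays. At 3 h it was so on 2 of 3 poly(I:C) arrays, and its change is not fully measured. With the slide as a block the calls for CUST_4719_PI426483990 and CUST_9792_PI426483990 held (limma adjusted p = 0.021 and 0.0496), the second only just. Those for CUST_5768_PI426483990 and CUST_54_PI426483990 were lost. After normexp background correction limma called 0 of the 44 probes for time, against 9.19% of all tested probes. Of the 44, 1 passed an unadjusted p under 0.05.

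No slide held both treatments at 25 °C and 3 h. In the 1 group that spanned slides 2 and 3, the later poly(I:C) group at 25 °C, the array on slide 2 minus the 2 on slide 3 gave a median of -0.14 log2 over the 44 probes, against 0.04 over all tested probes. Below 0 were 27 of the 44, and 6045 of 13369 of all tested probes. Below -0.5 were 9 of the 44, and 1588 of all tested probes. Over the 533 other contig probes with a difference of -1.5 log2 or less at 25 °C and 3 h the median was -0.31. Of these, 382 lay below 0 and 236 below -0.5. The slide 2 array enters a difference that the rule kept small in the 44, so the choice limited their reading. With the slide as a block the median difference at 25 °C and 3 h was -1.64 log2 over the 44, with 42 below 0. The rule then chose 48 probes, of which 14 were among the 44. Without that array, replicate 1 of its group, the rule chose 80 probes, 38 of them among the 44. The part of the slide in the choice of single probes was not tested further.

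Membership also moved with the scaling. The median of all tested probes at 25 °C and 3 h was -0.15 log2 here, -0.06 with quantile scaling and 0.07 with median scaling. Quantile scaling left 27 probes, 16 of them among the 44, and median scaling 23, with 18 among the 44. All 44 probes stayed below 0 under both, with medians of -1.48 and -1.44 log2. With normexp background correction all 44 were below 0 as well, but the median was -0.90 log2 and the rule chose 4 probes, 3 of them among the 44. That correction added an offset of 50 intensity units, which by itself makes log2 differences between dim signals smaller. How much of the change came from the offset was not tested.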

How the data were processed

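Spleen RNA was labelled with Cy3 and hybridised to single-colour Agilent arrays, 1 per sample. Per the file headers, the deposited scanner files hold the linear intensity of each spot after background subtraction in Feature Extraction 10.7.3.1 from Agilent, with no scaling between arrays. Version 9.5.3.1 stands in the submitters' processing notes, and the mismatch was not resolved. The flags for outlier, saturated and well above background spots in these deposited files were used as given. A table of log2 values by the authors was deposited too, and how it was made is not given in the sources used here. After removal of 1 constant per probe, 99.98% of values lay within 0.02 log2 of the scanner values scaled as below, so its scale and direction are known and its centring is not. Its column medians ran from -0.16 to 0.11.

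Outlier and control spots were left out, log2 signals were averaged per probe (14481 probes), and each array's 75th percentile was subtracted. That percentile lay between 363.3 and 903.4 intensity units, and the share of probes well above background between 78.4% and 95.0%. Identical arrays were looked for and not found. Testing required a signal well above background on each of the 3 arrays in 1 or more groups. The number of arrays limits the precision. All 24 arrays were fitted by group with limma 3.58.1 in R 4.3.3 (16 residual degrees of freedom, prior 2.65), with Benjamini-Hochberg adjustment over all tested probes. The fit was also run on simulated data with independent noise and no slide effect. That run cannot show how the tests fare where slide and group go together. The 2 tested contrasts sum both treatments, which makes their array noise uncorrelated with that of the poly(I:C) differences of the rule. This does not cover slide effects, nor the limits that the rule set on poly(I:C) differences in the members. Slides were read from the file headers. Normexp used the spots' median signal and local background, in place of the mean signal that was planned, and an offset of 50. Probe sequences and genome positions were not used here.

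Named probes are the 2 members with the most negative difference at 25 °C and 3 h among those well above background on all 3 poly(I:C) arrays, the 2 largest bounds among those above background on none, and per tested contrast at most 2 called members in each direction, with exceptions marked in the text. Where a count of 5 or fewer called probes was given, the remaining ones were named too. The members, lists and tests were chosen with earlier results of these data known.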

Additional observations from a re-analysis of the deposited data

How the results depend on the processing

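For temperature at 24 h, 24 of the 44 probes were called, against 47.3% of all tested probes. At an adjusted p under 0.01 the count was 14, against 34.4%. With the slide as a fixed block it was 1, against 6.54%, and after normexp 17, all higher, against 26.0% in either direction. With 1 array left out it was 19 to 26, against 42.7% to 46.7%. For time at 15 °C, 4 were called, against 24.8% of all tested probes. With no other groups in the fit the count was 7, against 26.6%, and with the slide as a block 2, against 17.2%. At an adjusted p under 0.01 it was 1, against 15.4%. After normexp limma called 0 of the 44, against 9.19%, and 1 passed an unadjusted p under 0.05. With 1 array left out the count was 4 to 6, against 20.8% to 24.7%. Over all tested probes, 6327 were called for temperature and 3321 for time, against 874 and 2306 with the slide as a block, 3483 (2226 higher and 1257 lower, against 3328 and 2999 without it) and 1230 with normexp, and 2061 for time at an adjusted p under 0.01. Other settings kept these counts within 1.5 times. Of the 6 single probes followed, CUST_7005_PI426483990 turned from -0.45 to 0.063 log2 with normexp. The causes were not tested.

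The rule gave 44 probes, and 27 with quantile scaling, 23 with median scaling, 4 with normexp, 105 at a looser limit, 8 at a stricter one, 22 with the other differences below 0.4, 71 below 0.6, and 26 when signals had to be well above background in every group. With 1 array left out it gave 36 to 80, and the 80 came without the slide 2 array of the later poly(I:C) group at 25 °C. The median difference at 25 °C and 3 h was -1.67, and -1.48 with quantile scaling, -1.44 with median scaling and -0.90 with normexp, and -1.79 to -1.60 with 1 array left out. The mean of the 3 left-out medians was -1.33 (-1.42 to -1.27), and -1.16 with median scaling. Same-numbered arrays of different groups had correlations of their deviations between -0.39 and 0.31. Their median was -0.0058, against -0.0055 for arrays with different numbers. The numbers were not treated as pairs, and whether they pair the arrays is not known. With the replicate block 22 of the 44 probes were called for temperature and 4 for time, against 46.5% and 24.1% of all tested probes. The 44 members and their median were as without that block. Dim signals limit the size of changes for probes near background.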
